A study of Mus musculus with 4 samples.

Results

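Notch receptors, ligands and transcriptional targets were examined in cultured rib chondrocytes with and without Senp6, the desumoylase that removes SUMO2/3 chains from proteins. The 10 genes were chosen by symbol, as the receptors Notch1, Notch2 and Notch3, the ligands Jag1, Jag2 and Dll1, and the targets Hes1, Hey1, Hey2 and Heyl. All 10 were listed with reads in each of the 4 samples, out of 18298 genes that any sample listed. Chondrocytes were cultured from rib cartilage of E18.5 embryos on a C57BL/6 background and sequenced at passage 1. The Senp6-Mut group (n = 2) carried Dermo1-Cre and Senp6f/f, and the WT group (n = 2) carried Senp6f/f without Cre, so the control cells also held floxed alleles. Dermo1-Cre is expressed from the Twist2 locus in mesenchymal progenitors of the skeleton, and each gene was measured in the whole culture. The labels do not say whether samples came from separate embryos, so p values measure the spread between these samples only.

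Notch receptors are cut at the membrane after they bind a Jagged or Delta ligand on a neighbouring cell, and the released intracellular domain joins the DNA-binding protein RBPJ and a Mastermind co-activator in the nucleus. The Hes and Hey genes, which encode basic helix-loop-helix repressors, are the best-known genes switched on by this complex. In the skeleton, Notch signalling is known to hold progenitors back from cartilage and bone differentiation.

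Gene-level depth was about 21000000 and 26100000 reads in the WT samples and 31000000 and 28200000 reads in the mutant samples. Senp6, the targeted gene, was read 1125 and 2326 times in the WT pair and 1839 and 1126 times in the mutant pair, so the groups overlapped (log2 fold change -0.56 ± 0.28 SE, adjusted p = 0.410 by edgeR). These values count the whole gene and cannot show whether the floxed part was lost, and directions below follow the labels. WT replicate 1 stood apart. Over 11737 genes its Euclidean distance on the log2(RPKM + 1) scale was 49.8 and 53.6 from the mutant samples, while WT replicate 2 lay 33.0 and 39.4 from them and 39.5 from WT replicate 1. Mutant replicate 2 alone had Xist reads (11354 against 2 to 5) and nearly lacked the Y-linked Ddx3y (3 reads against 818 to 1601), so sex was mixed in the mutant group. For these reasons the genes below are also given without single samples where a call or a direction turned.

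RPKM, the read count scaled by gene length and by the depth of the sample, was used for levels, and the read counts were used for the tests. With the edgeR quasi-likelihood test over 14123 genes, 0 of the 10 Notch genes passed an adjusted p of 0.05, nor did any gene (background 0.0%). DESeq2 called 1 of the 10 higher, Hey1 (background 3.07%), and limma on log2(RPKM + 1) without a filter, the limma fit that held all 10, called 0. At an unadjusted p under 0.05, 4 of the 10 were higher in Senp6-Mut, against a background of 9.29% of all genes tested, and 0 were lower, against 6.28%. These 4 were Notch3, Jag2, Hey1 and Hey2. In 5 of the 10, these 4 and Dll1, the RPKM of both mutant samples lay above both WT samples, against 28.3% of all genes. In the other 5 the groups overlapped, and 0 lay below, against 19.2%. The median log2 fold change of the 10 genes was 0.56, beside 0.01 over all genes tested. Jag2, Hey1 and Hey2 reached the minimum of 10 counts in 2 samples through the mutant samples alone, as did 334 of the genes tested, so the counts and the median above carry that choice.

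**Figure D1:**
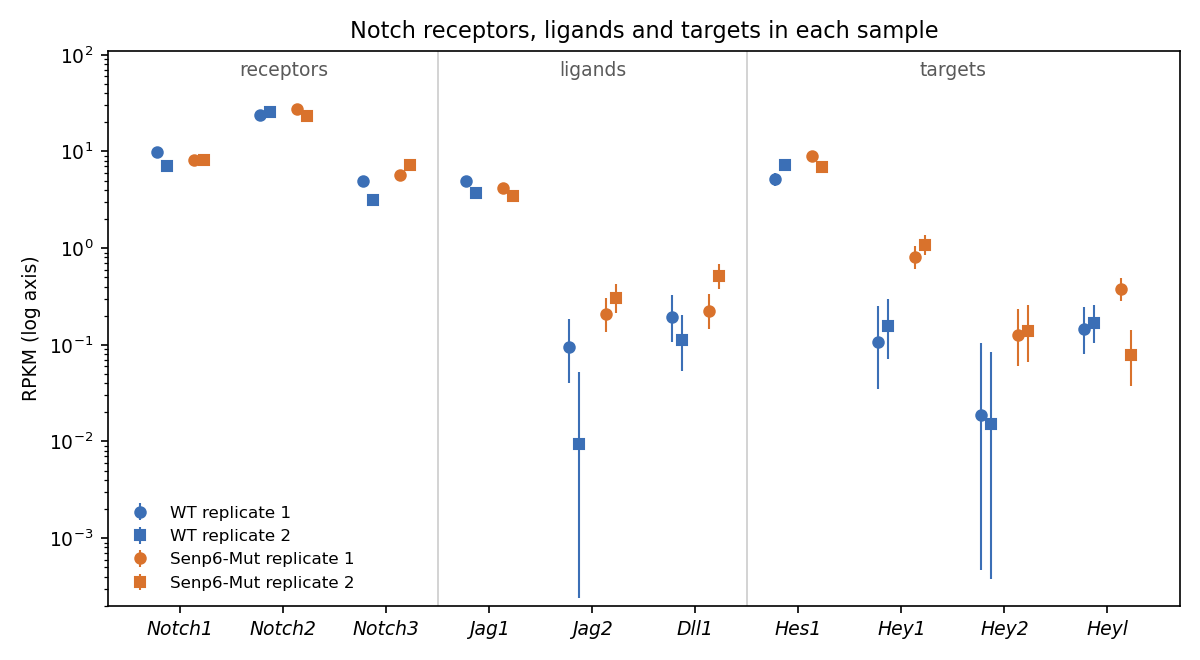
RPKM of the 10 Notch genes in each of the 4 samples on a log axis, with circles for replicate 1, squares for replicate 2 and bars for the exact 95% Poisson interval of the reads. The mutant points of Hey1, at 0.801 and 1.09, lie above the WT points at 0.107 and 0.155, while those of Notch2 lie among the WT points.

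The receptors were led by Notch2 in every sample. Notch1, the receptor with the broadest developmental roles, had 9.78 and 7.15 RPKM in WT and 8.15 and 8.17 RPKM in Senp6-Mut, given here and below with replicate 1 first. The mutant values fell between the WT values. Its log2 fold change was -0.10 ± 0.18 (SE, adjusted p = 0.852), and without WT replicate 1 it was 0.17.

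Notch2, a receptor known for its part in skeletal remodelling, had 23.6 and 25.6 RPKM in WT and 27.2 and 23.5 RPKM in Senp6-Mut. These 5210 to 8857 reads per sample were the most for any of the 10 genes. The samples overlapped, with a log2 fold change of 0.00 ± 0.14 (SE, adjusted p = 0.990).

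Notch3, the receptor best known in mural cells of vessels, had 5.00 and 3.17 RPKM in WT and 5.70 and 7.18 RPKM in Senp6-Mut. Both mutant samples were above both WT samples, although mutant replicate 1 exceeded WT replicate 1 by less than the gap within either group. The log2 fold change was 0.61 ± 0.25 (SE, adjusted p = 0.308). It was 1.0 without WT replicate 1 (adjusted p = 0.00309, where 3.72% of all genes were called higher) and 0.26 without WT replicate 2 (adjusted p = 0.240), so the WT sample kept decided the call. The ratio of Notch3 to Notch1 RPKM within a sample was 0.511 and 0.443 in WT and 0.700 and 0.878 in Senp6-Mut. Notch2 held the major share of the summed receptor RPKM throughout, from 60.5% to 71.3%.

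Among the 3 ligands, Jag1 had the highest level in every sample. Jag1, a membrane ligand of Notch receptors widely expressed in mesenchyme, had 4.90 and 3.69 RPKM in WT and 4.15 and 3.43 RPKM in Senp6-Mut. The groups overlapped (log2 fold change -0.22 ± 0.21 SE, adjusted p = 0.668). The value was 0.02 without WT replicate 1.

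Jag2, the other Jagged ligand, was read 8 and 1 times in WT and 26 and 35 times in Senp6-Mut, or 0.0939 and 0.00944 RPKM against 0.207 and 0.306 RPKM. Both mutant samples were higher than both WT samples, and WT replicate 2 rested on a single read. The pooled rate in Senp6-Mut was 5.40 times that in WT (exact 95% interval 2.66 to 12.4, counting error only). By edgeR the log2 fold change was 2.32 ± 0.79 (SE, adjusted p = 0.232). Without WT replicate 1, which leaves a single WT read, it was 4.59 (adjusted p = 0.0152), and without WT replicate 2 it was 1.33 (adjusted p = 0.161). Reads covered 11.4% and 1.23% of the Jag2 length in WT and 45.9% and 52.2% in Senp6-Mut.

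Dll1, a Delta-type ligand of somite and nervous system patterning, was read 14 and 10 times in WT and 24 and 50 times in Senp6-Mut. Per length this was 0.193 and 0.111 RPKM against 0.225 and 0.514 RPKM, so mutant replicate 1 was close to WT replicate 1. The pooled rate ratio was 2.45 (exact 95% interval 1.53 to 4.07, counting error only), and the log2 fold change was 1.24 ± 0.57 (SE, adjusted p = 0.369). Without mutant replicate 2 the log2 fold change was 0.55, so that sample raised it by more than 1 SE.

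Within the summed ligand RPKM, Jag1 took 94.5% and 96.8% in WT and 90.6% and 80.7% in Senp6-Mut. Jag2 and Dll1 held the rest, with 1.81% and 0.248% for Jag2 in WT against 4.52% and 7.19% in Senp6-Mut. The ligand sum itself was 5.19 and 3.81 RPKM in WT and 4.58 and 4.25 RPKM in Senp6-Mut, and did not separate the groups.

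**Figure D2:**
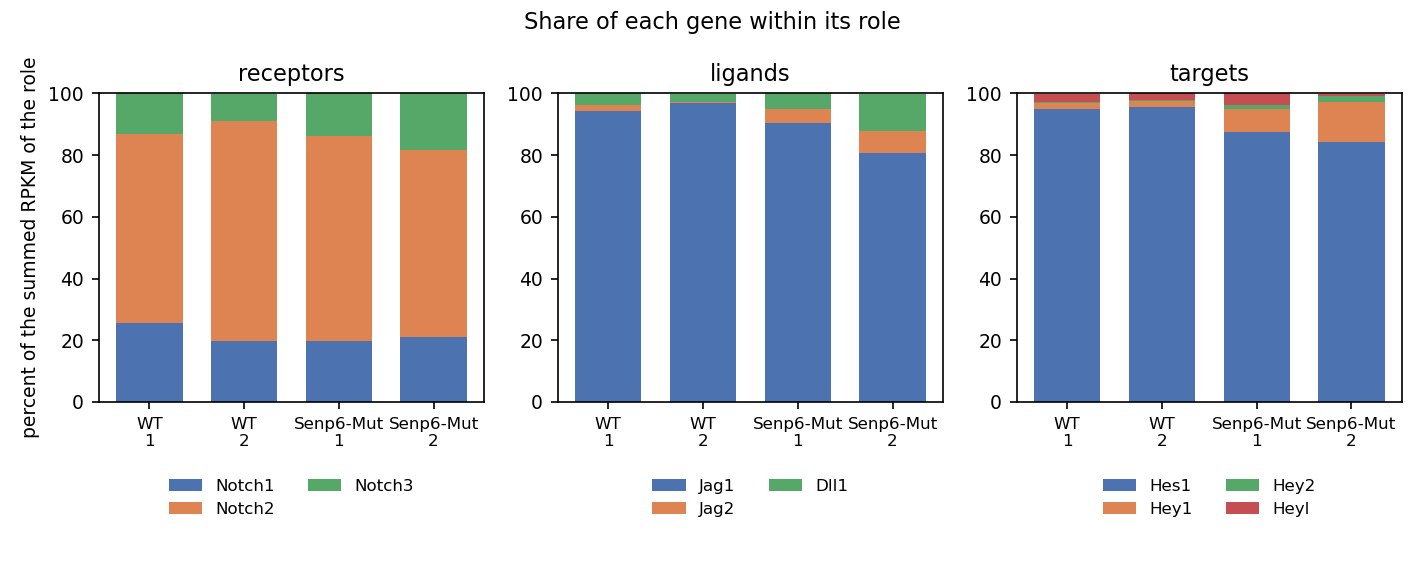
Stacked bars give the share of each gene in the summed RPKM of the receptors, ligands and targets, as percent, for each of the 4 samples. Jag1 and Hes1 fill most of their bars in every sample, with 80.7% or more for Jag1 and 84.3% or more for Hes1, and the Hey1 part is 7.74% and 13.1% in Senp6-Mut against 1.98% and 2.05% in WT.

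The targets separated by gene. Hes1, a repressor that responds to Notch and to other signals, had 5.15 and 7.26 RPKM in WT and 9.05 and 6.98 RPKM in Senp6-Mut. Mutant replicate 2 lay below WT replicate 2, so the groups overlapped. The log2 fold change was 0.33 ± 0.24 (SE, adjusted p = 0.584).

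Hey1, a repressor of the Hairy and enhancer of split family with a YRPW motif, gave the clearest separation of the 10. It was read 5 and 9 times in WT and 55 and 68 times in Senp6-Mut, or 0.107 and 0.155 RPKM against 0.801 and 1.09 RPKM. The lower mutant value was well above the higher WT value. The mean level was 0.131 ± 0.0340 RPKM in WT and 0.944 ± 0.202 RPKM in Senp6-Mut (SD, n = 2), and the pooled rate ratio was 6.99 (exact 95% interval 4.01 to 13.2, counting error only).

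The log2 fold change of Hey1 was 2.76 ± 0.44 (SE, a fold of 6.80), with an adjusted p of 0.0833 by edgeR, above the threshold. That was rank 88 of 14123 genes by p, and the smallest adjusted p of any gene was 0.0512. Hey1 passed the count filter through the mutant samples alone, as did 334 of the genes tested. Its rank, and the share of large fold changes given below, carry that choice. For the log2 fold change of Hey1, DESeq2 gave 2.78 (adjusted p = 0.00765). By edgeR without the count filter it was 2.75 (adjusted p = 0.0257, where 1.23% of genes were called higher). It was not called with library totals only (adjusted p = 0.0651), with upper-quartile factors (adjusted p = 0.0958) or by limma on log2(RPKM + 1) without a filter, where the pseudocount of 1 exceeds the Hey1 level in 3 of the 4 samples and the log2 difference was 0.78 (adjusted p = 0.190). With 1 sample left out the log2 fold change stayed between 2.55 and 3.01, and the adjusted p was 0.0178 without WT replicate 1, 0.00558 without WT replicate 2 (background 9.42%), 0.00746 without mutant replicate 1 (background 2.36%) and 0.0678 without mutant replicate 2. The last of these compares the 3 samples that share the Y-linked pattern. A log2 fold change over 2 was seen in 1.52% of all genes tested. The reads of Hey1 covered 22.8% and 46.1% of its length in WT and 80.3% and 77.5% in Senp6-Mut.

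Hey2, the related repressor of the cardiovascular system, was at the edge of detection in WT. It was read 1 time in each WT sample and 10 times in each mutant sample, or 0.0187 and 0.0150 RPKM against 0.127 and 0.139 RPKM. Both mutant samples were higher, and the samples of each group were alike. The pooled rate ratio was 7.96 (exact 95% interval 1.93 to 70.2, counting error only). The log2 fold change by edgeR was 2.82 ± 0.79 (SE, adjusted p = 0.167), and across 11 alternative settings the adjusted p lay between 0.140 and 0.568.

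Heyl, the third Hey gene and one often measured beside Notch3 in smooth muscle, was read 14 and 20 times in WT and 53 and 10 times in Senp6-Mut. The mutant samples lay on either side of the WT samples, at 0.377 and 0.0781 RPKM against 0.147 and 0.169 RPKM. The log2 fold change was 0.50 ± 0.72 (SE, adjusted p = 0.799) and turned to -1.07 without mutant replicate 1. Its pooled rate ratio was 1.48 (exact 95% interval 0.957 to 2.31, counting error only). The mutant samples differed from each other beyond counting error, with exact 95% intervals of 0.283 to 0.494 RPKM and 0.0375 to 0.144 RPKM, so the spread between replicates limited this comparison.

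The level of Hey1 relative to Hes1 within a sample does not depend on the scaling between samples. This RPKM ratio was 0.0208 and 0.0214 in WT and 0.0885 and 0.156 in Senp6-Mut. For Hey2 relative to Hes1 it was 0.00362 and 0.00207 in WT and 0.0140 and 0.0199 in Senp6-Mut. For Heyl it was 0.0285 and 0.0233 in WT and 0.0417 and 0.0112 in Senp6-Mut, so Heyl did not separate the groups on this measure either. Hes1 remained the main target transcript, at 84.3% to 95.5% of the summed target RPKM.

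**Figure D3:**
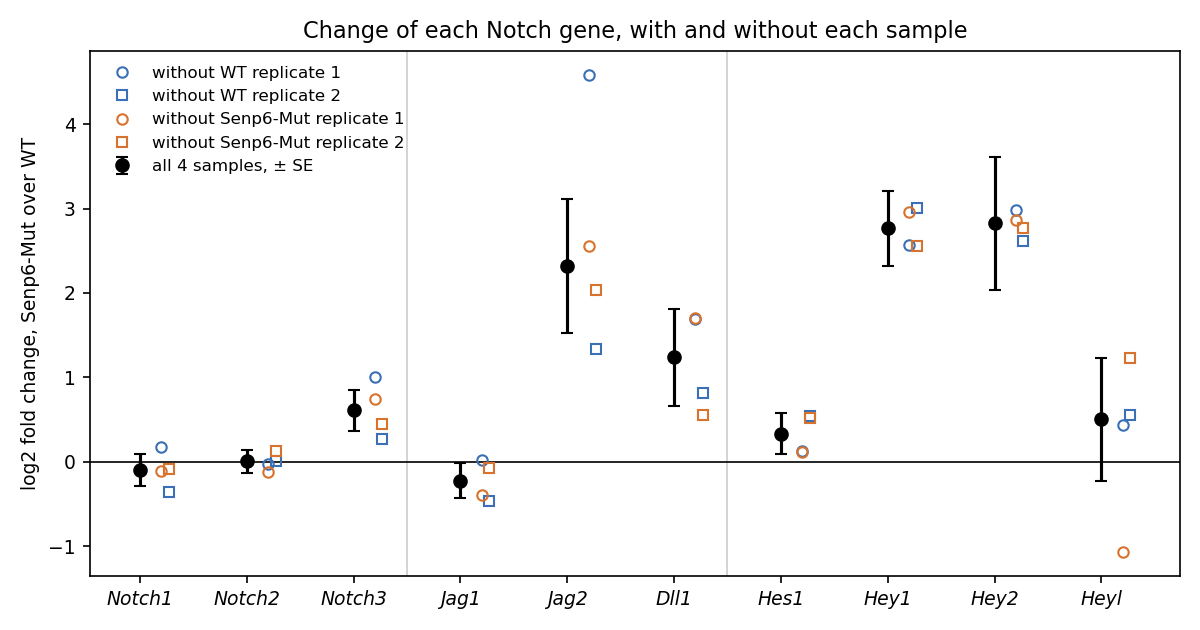
Log2 fold change of Senp6-Mut over WT for the 10 genes by edgeR, with black points and SE bars for the fit of all 4 samples and open symbols for the fits without 1 sample. Hey1 stays between 2.55 and 3.01 and Hey2 between 2.62 and 2.99, while Jag2 moves between 1.33 and 4.59 and Heyl between -1.07 and 1.23.

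In order of mean RPKM in WT, the genes ran Notch2, Notch1, Hes1, Jag1, Notch3, Heyl, Dll1, Hey1, Jag2 and Hey2. Notch1 and Hes1, at 8.46 ± 1.86 and 6.20 ± 1.49 RPKM (SD, n = 2), overlapped in WT, as did Jag1 and Notch3 at 4.30 ± 0.857 and 4.08 ± 1.29 RPKM. Heyl, Dll1 and Hey1 overlapped as well, at 0.111 to 0.193 RPKM for Dll1, and so did Jag2 and Hey2. In Senp6-Mut the order changed below the leading genes. Notch3 stood at 6.44 ± 1.04 RPKM beside Jag1 at 3.79 ± 0.508 RPKM, and Hey1 stood above Dll1, Jag2, Heyl and Hey2 in both mutant samples.

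Promoter sequences were looked up because the RBPJ complex binds DNA at a known core motif. RefSeq (GRCm38.p6) gave windows of 300 bases, 250 before the transcript start and 50 from it, for 7 of the 10 genes, all but Hes1, Hey1 and Heyl. The letters GTGGGAA, an RBPJ-type motif, were searched on both strands, and 6.38% of 32851 promoters held them. Among the 7 genes only Hey2 did, with 1 match on each strand, and 0.256% of promoters held 2 or more. The Hey2 window is printed without its last 20 bases, from 250 bases before the start through the first 30 from it, at chr10:30842754-30843033 on the minus strand, since it was the only one with the motif. Capitals mark GTGGGAA or its reverse complement.
Hey2: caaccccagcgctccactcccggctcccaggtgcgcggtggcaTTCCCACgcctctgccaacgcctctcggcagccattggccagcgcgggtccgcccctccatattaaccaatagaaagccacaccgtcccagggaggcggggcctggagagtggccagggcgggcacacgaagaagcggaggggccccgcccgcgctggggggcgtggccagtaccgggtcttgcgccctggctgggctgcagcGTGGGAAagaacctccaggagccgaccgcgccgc
Counted with the start base as 0, the matches began at position -207 and position -4. Of the other pathway genes listed further on, Hes5 also held 2 matches, shown with flanking bases from chr4:154960689-154960711 and chr4:154960832-154960854 on the plus strand. Both lay before the Hes5 transcript start, beginning at position -226 and position -83. The labels upstream and downstream give only their order along the gene.
Hes5 upstream: cgagcgcgTTCCCACagcccgga
Hes5 downstream: cgccgagtGTGGGAAcggccgcg
Hes5 was read 0 times in both WT samples and 1 time in each mutant sample. Whether the motif bears on the level of Hey2 or Hes5 was not tested. A match of letters is not a measured binding site, and no binding was measured here.

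The other components of the pathway were counted over a list of 55 genes, of which 54 were listed and 46 passed the count filter. At an adjusted p of 0.05 edgeR called 0 of the 46. DESeq2 called 3, with 1 lower (background 1.86%) and the rest higher (background 3.07%). At an unadjusted p under 0.05, 4 were higher in Senp6-Mut and 2 were lower, or 6 of 46 beside a background of 15.6% in either direction. Among the 4 higher genes, Dtx1 had no WT sample at 10 counts, nor did Nrarp, so they passed the filter only through the samples in which they were higher. The RPKM of both mutant samples was above both WT samples in 11 of the 46 (23.9%, background 28.3%) and below in 8 (17.4%, background 19.2%), and the groups overlapped in 27. These shares were no larger than the background. The median log2 fold change was -0.05.

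The 4 higher genes were Dlk2, Neurl1b, Nrarp and Dtx1. Dlk2, a Delta-like protein without the usual receptor-activating domain, had 2.14 and 2.60 RPKM in WT and 4.38 and 6.35 RPKM in Senp6-Mut (log2 fold change 1.13 ± 0.27 SE, adjusted p = 0.125). Neurl1b, a ubiquitin ligase that acts on Notch ligands, had 0.822 and 0.741 RPKM in WT and 1.54 and 1.74 RPKM in Senp6-Mut (log2 fold change 1.03 ± 0.21 SE, adjusted p = 0.108). The groups did not overlap in either gene, with a gap wider than the spread within both groups for Neurl1b but narrower than the gap between the mutant samples for Dlk2.

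Nrarp, a feedback inhibitor that is itself a Notch target, was read 3 and 2 times in WT and 13 and 11 times in Senp6-Mut, with a pooled rate ratio of 3.82 (exact 95% interval 1.43 to 12.8, counting error only). Its log2 fold change was 1.84 ± 0.66 (SE, adjusted p = 0.251). Dtx1, a ubiquitin ligase of the Deltex family, was read 5 and 6 times in WT and 21 and 25 times in Senp6-Mut (log2 fold change 1.68 ± 0.50 SE, adjusted p = 0.188). Both were low in every sample, and neither was called by DESeq2.

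The 2 lower genes were Tle2 and Dtx3. Tle2, a Groucho-type co-repressor that partners Hes proteins, had 34.3 and 19.8 RPKM in WT and 14.7 and 16.4 RPKM in Senp6-Mut (log2 fold change -0.85 ± 0.27 SE, adjusted p = 0.207). Dtx3, another Deltex protein, had 37.3 and 34.4 RPKM in WT and 28.5 and 26.6 RPKM in Senp6-Mut (log2 fold change -0.42 ± 0.14 SE, adjusted p = 0.217). DESeq2 called Dlk2 (adjusted p = 0.0360), Neurl1b (adjusted p = 0.0217) and Tle2 (adjusted p = 0.0347).

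These values and calls varied with the samples kept. Without WT replicate 2, Tle2 was at -1.24 and Dtx3 at -0.53, while Dlk2 was at 1.22 and Neurl1b at 0.90. Without WT replicate 1, Neurl1b was at 1.12 and Tle2 at -0.37. With any 1 sample left out, Dlk2 stayed between 0.86 and 1.36 and Neurl1b between 0.90 and 1.12. Nrarp stayed between 1.38 and 2.32 and Dtx1 between 1.50 and 1.84. Tle2 stayed between -1.24 and -0.37 and Dtx3 between -0.53 and -0.34. These fits leave 1 sample in a group, so the genes they call are not counted here.

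Of the 10 receptor cleavage genes, the ADAM proteases, furin and the γ-secretase subunits, 0 had an unadjusted p under 0.05 and none was called by DESeq2. Their log2 fold changes lay between -0.26 for Aph1a and 0.20 for Adam10, and without WT replicate 2 Aph1a was at -0.41. Among the 13 tested genes of the nuclear complex and co-repressors only Tle2 had an unadjusted p under 0.05. Rbpj itself had 25.7 and 39.5 RPKM in WT and 37.1 and 44.5 RPKM in Senp6-Mut, and the groups overlapped (log2 fold change 0.29 ± 0.20 SE, adjusted p = 0.569). Without WT replicate 2 Rbpj was at 0.57. The 4 tested glycosylation genes, which tune ligand choice, lay between -0.28 and 0.17 on the log2 scale, and 0 had an unadjusted p under 0.05. Of the other receptors and ligands, Dlk1, a Delta-like protein known as an inhibitor of adipocyte differentiation, was by far the most abundant, at 122 and 65.7 RPKM in WT and 64.8 and 104 RPKM in Senp6-Mut. The groups overlapped (log2 fold change -0.21 ± 0.34 SE, adjusted p = 0.819). Dner was at 0.386 to 0.541 RPKM in the 4 samples (log2 fold change 0.21 ± 0.33 SE, adjusted p = 0.820). Notch4 was read 11 to 28 times per sample, Dll4 1 to 5 times and Dll3 0 to 5 times, so they were near or under the filter.

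**Figure D4:**
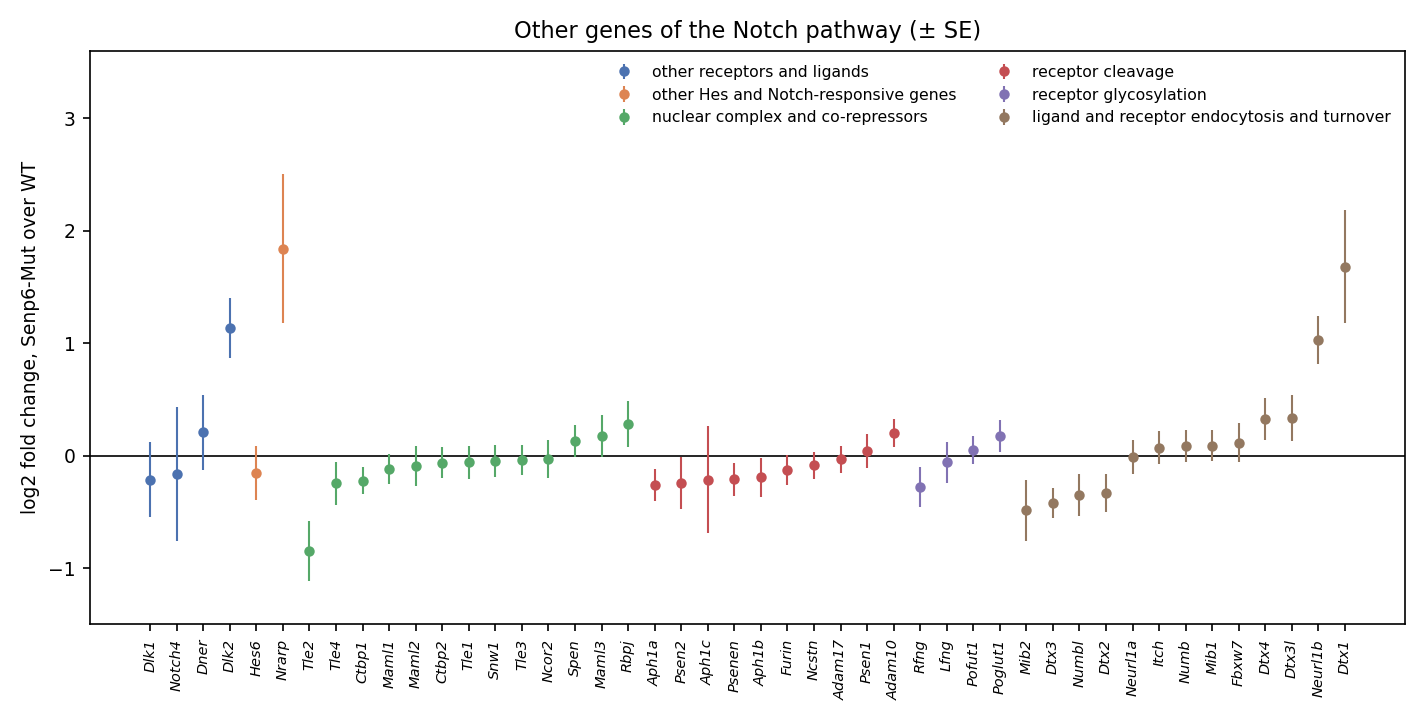
Log2 fold change of Senp6-Mut over WT by edgeR, with SE bars, for the 46 tested genes of the wider Notch pathway list, coloured by role. Receptor cleavage genes lie between -0.26 and 0.20, whereas Nrarp at 1.84, Dtx1 at 1.68, Dlk2 at 1.13 and Neurl1b at 1.03 lie highest.

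Markers of other cells were measured beside the Notch genes, since Notch3, Heyl and the Hey genes are also expressed outside cartilage. In bulk RNA, fewer cells of a type and less RNA per cell cannot be told apart. Chondrocyte markers were present in all samples (16 of 16 with reads), with Col2a1 at 609 and 659 RPKM in WT and 334 and 445 RPKM in Senp6-Mut. The summed RPKM of the 16 was 1082 and 1060 in WT and 526 and 665 in Senp6-Mut, and 14 of them were below WT in both mutant samples (background 19.2%). Mural and smooth muscle markers summed to 1426 and 1650 RPKM in WT and 2142 and 2018 RPKM in Senp6-Mut, with 7 of 10 above WT in both mutant samples (background 28.3%). Acta2 made up most of each sum, at 951 and 1127 RPKM in WT and 1434 and 1299 RPKM in Senp6-Mut. The pericyte markers on this list went different ways. Rgs5 was above, at 0.184 and 0.211 RPKM in WT against 0.446 and 0.391 RPKM in Senp6-Mut. Cspg4 was above as well, at 17.4 and 23.0 RPKM against 25.9 and 29.1 RPKM. Pdgfrb was below, at 99.2 and 103 RPKM against 95.9 and 80.9 RPKM, and the groups overlapped for Kcnj8 and Abcc9.

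Skeletal muscle markers (10 of 11 listed) summed to 94.3 and 26.3 RPKM in WT and 151 and 174 RPKM in Senp6-Mut. Of the 9 tested, 6 were above WT in both mutant samples (background 28.3%). Myod1 was at 1.80 and 0.537 RPKM in WT and 4.30 and 9.30 RPKM in Senp6-Mut. Endothelial markers summed to 6.80 and 5.85 RPKM in WT and 5.34 and 7.20 RPKM in Senp6-Mut, and 1 of the 10 reached 1 RPKM in each sample. That marker, Egfl7, made up most of each sum, at 3.83 to 5.68 RPKM. Pecam1 and Cdh5 were at 0.0530 to 0.380 RPKM in the 4 samples. Jag2, Dll1, Hey2 and Heyl each lay in this range in some or all samples. Hey1 lay within it in WT, at 0.107 and 0.155 RPKM, but above it in both mutant samples, at 0.801 and 1.09 RPKM. Dll1 in mutant replicate 2, at 0.514 RPKM, was above it too. Kdr was above WT in both mutant samples, at 0.131 and 0.238 RPKM in WT against 0.390 and 0.570 RPKM, and Tek was below, at 0.470 and 0.288 RPKM against 0.111 and 0.122 RPKM. Osteoblast markers summed to 482 and 538 RPKM in WT and 498 and 642 RPKM in Senp6-Mut. Spp1 made up most of this sum, at 310 to 600 RPKM. The other 4 of the 5 tested markers were below WT in both mutant samples (background 19.2%). Among them, Alpl was at 90.1 and 45.7 RPKM in WT against 11.6 and 22.4 RPKM. The macrophage markers summed to 18.9 and 17.6 RPKM in WT against 9.88 and 14.7 RPKM. Of the 5 tested, 3 were below WT in both mutant samples (background 19.2%) and 1 was above (background 28.3%). Among those below, Lyz2 was at 11.1 and 7.85 RPKM in WT against 2.53 and 4.76 RPKM. The 1 above was Cd14, at 2.22 and 2.96 RPKM in WT against 3.25 and 4.56 RPKM. The part of these cell types in the values of the Notch genes was not tested.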

How the data were processed

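RNA from 4 chondrocyte cultures (2 WT, 2 Senp6-Mut) was sequenced by a service. Per the labels the processing notes name the genome build mm9 and SAMtools, and the aligner and counting tool are not given in the sources used here. The deposited counts are raw reads per gene. The deposited RPKM divide them by gene length and by the sum of gene reads, and the deposited percent gives how much of a gene's length had reads. A gene absent from a sample was given a count of 0. The strand setting of the counting is not stated, and Notch1, Notch3 and Dll1 overlap annotated genes on the opposite strand that the files do not list.

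Counts were tested in edgeR 4.0.16 under R 4.3.3 (quasi-likelihood, TMM, robust estimation, Benjamini-Hochberg adjustment). A gene needed 10 counts in 2 samples, which 14123 genes had. DESeq2 1.42.0 and limma 3.58.1 (pseudocounts 1 and 0.1 on the log2 RPKM scale) were alternatives, with other scaling, other filters, a replicate block and each sample left out. The scripts were tested on simulated data. The Notch genes and the pathway and marker lists were chosen with earlier results of these data known, and all 10 genes were named whatever their result. From the pathway list, genes with an unadjusted p under 0.05 are described, with others as examples of their role. With 2 samples against 2, an exact permutation test cannot give a p below 0.333. Replicates were checked for repeated libraries. The chi-square of their counts per degree of freedom was 51.5 in WT and 24.9 in Senp6-Mut, so each was kept as a sample. Intervals of reads are exact Poisson or conditional binomial intervals at 95%, and cover counting error only.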

Additional observations from a re-analysis of the deposited data

How the results depend on the processing

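Of 127 alternative values of the 10 Notch genes, 111 kept their direction and their side of the threshold, 7 passed it and 9 turned direction. Hey1, Hey2, Jag2, Dll1, Notch3 and Hes1 stayed higher in Senp6-Mut in every setting that gave a value. The turned values were those of Notch2 under DESeq2 (-0.010), upper-quartile factors (-0.0019), no filter (-0.0064) and the replicate block (-5.53e-05), and those with 1 sample left out. There Notch1 ranged from -0.36 to 0.17 and Jag1 from -0.47 to 0.021, both turning without WT replicate 1. Notch2 ranged from -0.12 to 0.12, turning without WT replicate 1 or mutant replicate 1, and Heyl from -1.07 to 1.23, turning without mutant replicate 1. The number of the 10 genes called was 0 with all samples, 1 under DESeq2 and with no filter (Hey1 in both), and 0 to 3 with 1 sample left out, with Notch3, Jag2 and Hey1 called without WT replicate 1. Of the other pathway genes DESeq2 called 3, and with 1 sample left out the calls depended on which sample it was. Over all genes, 0 were called in either direction, against 434 higher and 263 lower under DESeq2, 225 and 61 with no filter, and 6 and 2 with library totals only. Without 1 sample, 96 to 1331 were called higher (525 without WT replicate 1, 1331 without WT replicate 2, 333 without mutant replicate 1, 96 without mutant replicate 2) and 47 to 1492 lower (149, 1492, 92 and 47 in that order). In these fits the lone sample is assumed to vary like the other group.

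The labels do not say whether the replicate numbers pair the samples. The differences between replicates correlated at -0.06 across genes between the genotypes. With 1 such difference per genotype, and sex mixed in the mutant pair, this value cannot decide it. The replicate block called 84 genes higher and 33 lower, and gave Hey1 an adjusted p of 0.0647. The median log2 fold change was 0.33 over the genes with 10 counts in every sample. With limma it was 0.04 at a pseudocount of 1 or 0.1 and a filter on RPKM, fits that held only Notch1, Notch2, Notch3, Jag1 and Hes1, and 0.20 over all 10 at a pseudocount of 1 without that filter. The cause of the other changes was not tested. At 1 to 20 reads per WT sample, depth limits what can be said of Jag2, Dll1, Hey1, Hey2 and Heyl.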

Other observations

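Genes with a profile like that of the Notch gene of each role with the largest change were sought by Euclidean distance over the 4 samples, on centred log2(RPKM + 0.1), among the 11737 genes that reached 1 RPKM in 2 samples. The nearest to Notch3 were Pdk4 (distance 0.0817), Epas1 (0.0969) and Car5b (0.112). For Jag2 they were Alox5ap (0.169), Celf5 (0.199) and Dcaf12l1 (0.264). For Hey2 they were Gm13212 (0.0462), Rab27b (0.0815) and Neurl1b (0.0877). Hey1, whose change was within the error of that of Hey2 and exceeded it without WT replicate 2 (3.01 against 2.62), was added after its values were seen, and its nearest genes were Gdf15 (0.138), Diras2 (0.265) and Crym (0.305). Neurl1b was also the nearest gene to Hey2 among 55 other genes of the members and the pathway list. By edgeR their log2 fold changes were unlike, at 2.82 for Hey2 and 1.03 for Neurl1b. The pseudocount of 0.1 exceeds the WT RPKM of Hey2, at 0.0187 and 0.0150, and shrinks its difference on this scale. A likeness over 4 samples follows mostly from the difference between the groups, and the pseudocount brings low genes closer together.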
